A study of Mus musculus with 6 samples.

Results

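The genes of glucose uptake, glycolysis, lactate handling and the response to low oxygen were followed in whole mouse blastocysts exposed to a mimic of the microRNA miR-30d. The list holds 30 genes chosen by name for their place in these pathways, and 28 of them had at least 1 feature with a gene name on the array, 53 features in all. Gpi1, the isomerase of the second glycolytic step, and Eno1, the main enolase, had no feature with that gene name and were not analysed here. The array does have a feature named Eno1b, which has a different Entrez identifier and was not used for Eno1. All 28 lay above the filter on dim features, out of 17399 genes tested. For a gene with several features the one with the highest mean over the 6 arrays was used, and 18 of the genes had a single feature.

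Embryos of the B6C3F1 hybrid strain came from females of 6 to 8 weeks, primed with gonadotropins, mated overnight and flushed on day 2 of pregnancy. They were cultured for 72 hours in CCM-30 medium with a synthetic RNA at 400 nM and collected as day 5 blastocysts, with 30 embryos per condition. In 3 samples that RNA was the miR-30d mimic, and in the other 3 a scrambled sequence coupled to Alexa 488, so the control carries a dye that the labels do not mention for the mimic. The design gives no embryos arrayed without any added RNA, and effects of the dye or of transferring an RNA as such cannot be told apart from those of the microRNA. Each array was hybridised with Cy3-labelled RNA made from 50 ng of total RNA of whole blastocysts. The oxygen level of the incubator and the glucose content of the medium matter for these genes, and neither was found in the labels.

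Glycolysis converts glucose to pyruvate in the cytosol, and lactate dehydrogenase and monocarboxylate transporters then decide how much carbon leaves the cell as lactate. The early mouse embryo lives mainly on pyruvate during cleavage, and glucose uptake and glycolysis increase as it forms a blastocyst, whose outer layer, the trophectoderm, carries glucose transporters. Under low oxygen the factor HIF1A escapes hydroxylation by the EGLN enzymes. With its partner ARNT it then binds sequences such as ACGTG in hypoxia response elements near glycolytic and other target genes.

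The defining markers of the blastocyst were read. The 8 trophectoderm markers had mean log2 signals from 10.01 to 15.76, with Krt18 the highest, and the 8 markers of the inner cell mass had 8.10 to 10.80. Markers of cells that could be carried over lay mostly near 7.21, the median level of features without a gene name. The exceptions were Foxl2 in the cumulus list (12.69), Krt7 in the oviduct list (10.86) and Hemgn in the blood list (13.51), and the highest of the 6 sperm markers was at 7.41. The part of such cells in the results was not tested. The mean level of the trophectoderm list was at least 12.79 on every scramble array and ran from 12.64 to 12.95 on the mimic arrays. That of the inner cell mass list was 9.47 to 9.66 and 9.54 to 9.70, that of the cumulus list 7.76 to 7.96 and 7.72 to 7.99, and that of the blood list 8.61 to 8.75 and 8.62 to 8.72, and that of the primitive endoderm list 9.55 to 9.91 and 9.83 to 9.98, and in each of these lists the groups overlapped. Gene by gene the lists were less even. Of the 7 primitive endoderm markers 5 were higher with the mimic, with a median log2 difference of 0.34 (0.12 without both replicate 1 arrays). Of the 8 trophectoderm markers 6 were lower and 2 higher, with a median of -0.11. In all 3 same-numbered pairs 4 of the 8 were lower and 2 higher, against 13.8% and 19.1% of all genes. With the replicate block in limma 3 of the 8, counted in either direction, had an unadjusted p under 0.05, against 7.24% of all genes. Single markers had groups that did not overlap. Krt8 (-0.27), Nanog (-0.34), Dppa3 (-0.64) and Dab2 (-0.47) lay wholly lower with the mimic, and Sox2 (0.51) and Foxa2 (0.39) wholly higher. In the inner cell mass list this was 2 of 8 lower and 1 of 8 higher, against 4.12% and 5.58% of all genes. Among markers of cells that could be carried over, Foxj1 (-0.39) and Odf1 (-0.28) lay wholly lower and Has2 (0.23) wholly higher. None of these markers passed the adjusted threshold, and the part of cell makeup in the results was not tested. In whole embryos, fewer cells of a type and less RNA per cell cannot be told apart. The arrays were not equally precise. Over the 387 genes with 10 or more features, the median SD between features of a gene on the same array was 0.47 on scramble replicate 1 and 0.36 on mimic replicate 1, and 0.19 to 0.21 on the other 4 arrays.

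The promoters of 4 of the genes are shown because these genes had higher signal with the mimic in each same-numbered pair of arrays, described below, and carry the core of the hypoxia response element, and they were picked after their values were seen. Pkm, also higher in each pair, is not printed, and Gapdh has no match to ACGTG, the only form of the core searched. Ldha and Pkm each have matches upstream of only 1 of their 2 starts, and that start is printed for Ldha. The 160 bases upstream of an annotated start site are given 5′ to 3′ on the strand of the gene, from RefSeq on GRCm38.p6, with matches to ACGTG on either strand in capitals. Slc2a1 encodes the glucose transporter GLUT1 (chr4:119108585-119108744, plus strand), Slc16a3 the lactate exporter MCT4 (chr11:120948907-120949066, plus strand), Pgk1 phosphoglycerate kinase (chrX:106186940-106187099, plus strand) and Ldha the A subunit of lactate dehydrogenase (chr7:46845644-46845803, plus strand).
Slc2a1: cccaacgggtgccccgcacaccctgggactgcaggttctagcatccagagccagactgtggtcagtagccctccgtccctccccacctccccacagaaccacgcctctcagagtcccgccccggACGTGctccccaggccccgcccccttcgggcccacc
Slc16a3: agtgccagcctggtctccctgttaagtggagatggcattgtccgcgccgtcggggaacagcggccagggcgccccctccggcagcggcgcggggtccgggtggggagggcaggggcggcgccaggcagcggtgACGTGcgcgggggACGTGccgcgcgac
Pgk1: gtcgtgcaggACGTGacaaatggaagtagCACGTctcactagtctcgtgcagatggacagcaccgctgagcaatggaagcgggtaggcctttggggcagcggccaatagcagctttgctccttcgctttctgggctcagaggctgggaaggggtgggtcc
Ldha: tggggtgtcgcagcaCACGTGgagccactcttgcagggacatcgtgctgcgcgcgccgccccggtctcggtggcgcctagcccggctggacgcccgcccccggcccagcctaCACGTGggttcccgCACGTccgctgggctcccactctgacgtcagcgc

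The stretch of Slc2a1 held 1 match, and that of Slc16a3 held 2 on the strand of the gene. Pgk1 had 1 match on each strand. In Ldha 2 of the 3 capital stretches read CACGTG, which matches on both strands and is also the E-box bound by MYC. Within 250 bases upstream of any annotated start, ACGTG on either strand was present in 16 of the 28 listed genes found in the promoter table (57.1%), against 18.5% of the 27025 genes in it. Counted by promoter it was 18 of 41 (43.9%) against 16.6% of all 32851. The 28 genes found there are not the 28 on the array. They include Gpi1 and Eno1, which had no feature, and lack Slc2a3 and Ndrg1. The promoters were not matched for base composition or for the number of starts per gene. The list was chosen by name and includes known HIF targets, so a higher share may be built in by that choice. Of the 16 genes with a match, all on the array, 9 had higher mean signal with the mimic and the median log2 difference was 0.07, and the 10 array genes without a match had 6 higher and a median of 0.06. The medians with and without the motif were nearly equal, and their difference was not tested.

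The median of the list lay where that of all genes lay. The mean signal was higher with the mimic in 15 genes and lower in 13, where 53.2% of all genes were higher. The median log2 difference, mimic minus scramble, was 0.02 over the 28 genes and 0.02 over all genes. Adjusted over all genes, limma called 0 of the 28 (0% of all genes called), with a lowest adjusted p of 0.972. At an unadjusted p under 0.05 there were 2 of 28, Slc16a3 and Slc2a1, against 3.17% of all genes. These were also the genes whose groups did not overlap, both higher with the mimic (5.58% of all genes), and no gene of the list lay wholly lower (4.12% of all genes). In 21 of the 28 the difference was smaller than its standard error. The median standard error was 0.25, the same as over all genes, so at this precision a difference of the size seen in most of these genes was not detectable.

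The arrays were taken as paired by replicate number from correlations in these same data, and the pairing of numbers 2 and 3 is weak. That check is described with the processing. The glycolytic genes varied strongly with the replicate number. With the replicate number as a block, 6 of the 28 genes had an unadjusted p under 0.05, against 7.24% of all genes. They were Slc2a1, Slc16a3, Gapdh, Pgk1, Pkm and Ldha, all higher with the mimic. None passed the adjusted threshold in that limma fit, whose lowest adjusted p in the list was 0.525 (0.00575% of all genes called, a single gene outside the list). The same 6 genes were higher in all 3 same-numbered pairs, 21.4% of the list, close to the 19.1% of all genes. Slc2a3 and Aldoa were lower in all 3 pairs, 7.14% of the list against 13.8% of all genes.

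**Figure D1:**
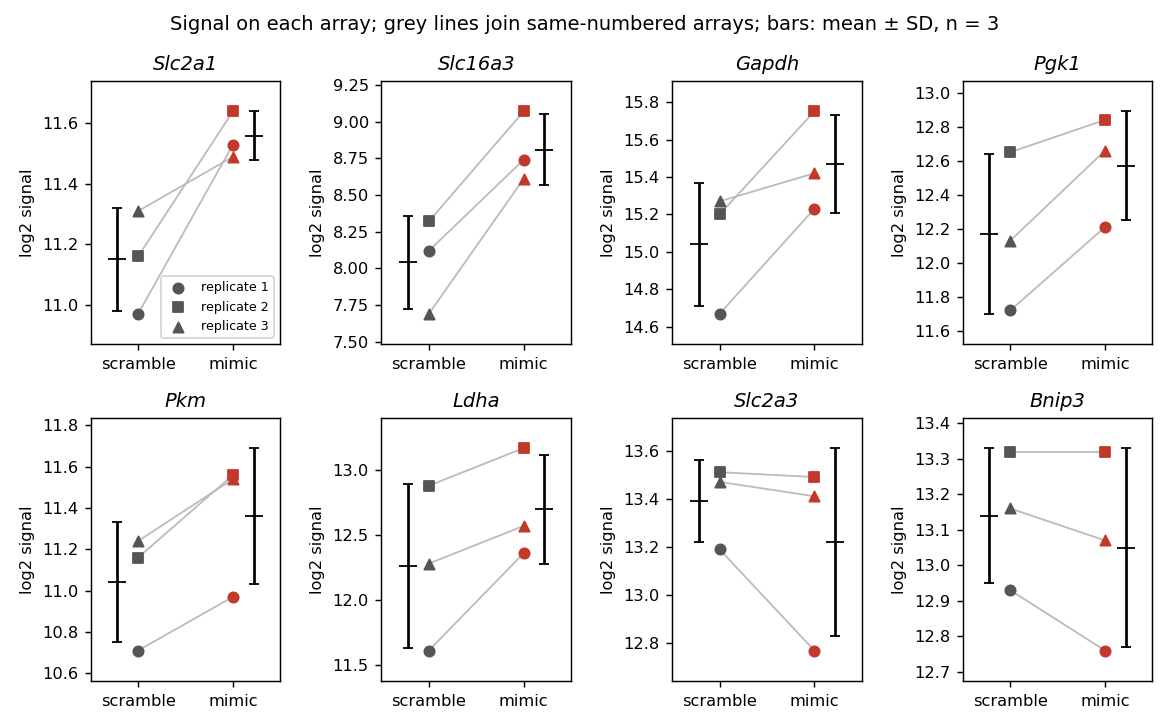
Log2 signal (vertical axes, each on its own scale) of 8 genes on the 3 scramble and 3 mimic arrays, with grey lines between arrays of the same replicate number and bars for mean ± SD (n = 3). The lines rise in Slc2a1, Slc16a3, Gapdh, Pgk1, Pkm and Ldha, the groups stand apart in Slc2a1 and Slc16a3, and Slc2a3 and Bnip3 are level or lower.

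Glucose enters the blastocyst through facilitative transporters, and the 2 measured here had differences of opposite sign, a contrast that was not tested. Slc2a1 read 10.97, 11.16 and 11.31 on scramble replicates 1 to 3 and 11.53, 11.64 and 11.49 on mimic replicates 1 to 3. Every mimic array was above every scramble array. The group means were 11.15 ± 0.17 and 11.56 ± 0.08 (SD, n = 3 each), a 1.33-fold difference with a log2 value of 0.41 (SE 0.13, 95% interval 0.11 to 0.70, adjusted p = 0.972 in limma). The two-sided exact permutation test gave p = 0.1, the smallest that 3 arrays against 3 allow. Leaving out any 1 array gave 0.32 to 0.49, and leaving out both replicate 1 arrays gave 0.33. Slc2a3, which encodes the high-affinity transporter GLUT3 of the trophectoderm, read 13.19, 13.51 and 13.47 with scramble and 12.77, 13.49 and 13.41 with the mimic. The groups overlapped, and the low value was that of mimic replicate 1. Its log2 difference was -0.17 (SE 0.21, 95% interval -0.65 to 0.32), and -0.04 without both replicate 1 arrays.

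The hexokinases trap glucose in the cell by phosphorylation. Hk2, the isoform often induced by HIF1A, read 11.19, 11.30 and 11.54 with scramble and 11.17, 11.00 and 11.79 with the mimic. The highest and the lowest of the 6 values were both mimic arrays, and the log2 difference was -0.02 (SE 0.21, 95% interval -0.50 to 0.45). Hk1, the housekeeping isoform, had a log2 difference of -0.26 (SE 0.34), which came from mimic replicate 1. That array read 7.37 and the other 5 lay between 8.24 and 8.35, and without both replicate 1 arrays the difference was 0.05. A dimmer second feature of Hk1 had the opposite sign, 0.35, with a mean level of 7.20, at the level of unnamed features. Its groups did not overlap, reading 6.82, 7.05 and 7.21 with scramble and 7.41, 7.33 and 7.40 with the mimic.

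In the upper part of glycolysis, from the phosphofructokinases to triosephosphate isomerase, 4 of 6 genes had higher mean signal, and the median log2 difference was 0.08. Pfkl, the liver-type subunit of the committing enzyme phosphofructokinase, read 7.60, 9.41 and 9.98 with scramble and 9.08, 9.62 and 9.87 with the mimic. Scramble replicate 1 was far below all other arrays, and without both replicate 1 arrays the log2 difference fell from 0.52 (SE 0.54) to 0.05. Aldoc, an aldolase isoform, had the largest difference of this segment, 0.64 (SE 0.43), from readings of 7.09, 8.58 and 8.43 with scramble and 9.09, 8.47 and 8.47 with the mimic. Here replicate 1 gave both the lowest and the highest value, the other 4 arrays lay between 8.43 and 8.58, and without replicate 1 the difference was -0.03. Aldoa, the aldolase isoform of most cells, was lower by 0.26, 0.15 and 0.08 in the 3 pairs, a log2 difference of -0.16 (SE 0.25). Tpi1, which interconverts the triose phosphates, had 0.03 (SE 0.15, 95% interval -0.31 to 0.37), and its dimmer second feature had -0.18.

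The other phosphofructokinase subunits had small differences. Pfkp, the platelet-type subunit, had a log2 difference of -0.15 (SE 0.26), and 0.16 on a second feature whose mean level was 7.21. Pfkm, the muscle-type subunit, was measured by 10 features and shows how far features of a gene spread on each array. On scramble replicate 1 these features spread from 8.00 to 9.35, an SD of 0.44, while on mimic replicate 1 they spread from 8.76 to 9.18, an SD of 0.13. On the other arrays the SD was 0.23, 0.31, 0.17 and 0.17, in the order scramble 2 and 3 and mimic 2 and 3. The brightest feature of Pfkm gave a log2 difference of 0.12 (SE 0.20), 9 of the 10 features were higher with the mimic, and their median difference was 0.24. These features share the same arrays, and the difference rests on scramble replicate 1, where their median was 8.36 against 8.93 to 9.00 on the other 5 arrays. Without that array the brightest feature differed by 0.01.

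**Figure D2:**
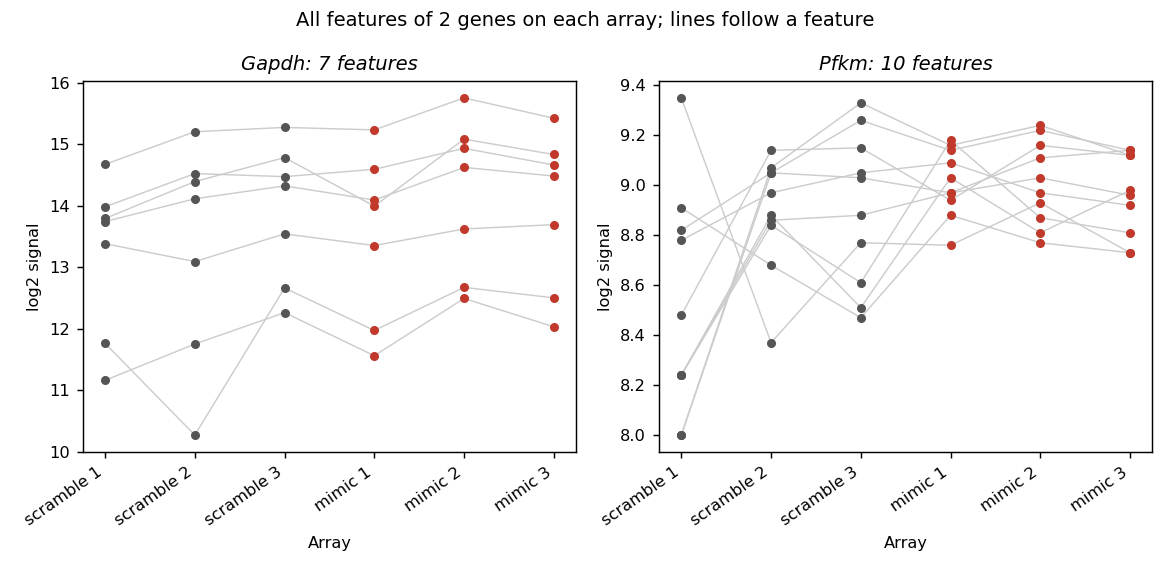
Log2 signal of all 7 features of Gapdh and all 10 features of Pfkm on each array, with a line for each feature. The Pfkm features spread most widely on scramble replicate 1 (8.00 to 9.35), and all 7 Gapdh features have a higher mean on the mimic arrays.

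The lower part of glycolysis, where ATP is made, had all 5 of its measured genes higher in mean signal with the mimic, with a median log2 difference of 0.32, and 0.35 without both replicate 1 arrays, with 0 of 5 past an adjusted p of 0.05 and 0 of 5 under an unadjusted p of 0.05. The median fell to 0.16 when scramble replicate 1 alone was dropped, where Pgam1 was at -0.08, and to 0.22 when mimic replicate 2 was dropped, where Pgam1 was at -0.06 and Eno2 at -0.03. Gapdh, glyceraldehyde-3-phosphate dehydrogenase, read 14.67, 15.20 and 15.27 with scramble and 15.23, 15.75 and 15.42 with the mimic. The groups met only at scramble replicate 3 and mimic replicate 1, and the 3 pairs differed by 0.56, 0.56 and 0.15. The log2 difference was 0.42 (SE 0.26, 95% interval -0.16 to 1.01), and 0.24 without scramble replicate 1. This feature lay at the top of the scale, and its value on mimic replicate 2 was the maximum of that array, shared by 162 features, so it may be a lower bound there. One of the dimmer features had groups that did not overlap. The dimmer features, from 11.88 to 14.52 in mean level, were all higher with the mimic too, and over the 7 features the differences ran from 0.22 to 0.81.

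Pgk1, which makes the first ATP of the pathway, read 11.72, 12.65 and 12.13 with scramble and 12.21, 12.84 and 12.66 with the mimic. The groups overlapped, but each mimic array exceeded its scramble partner, by 0.49, 0.19 and 0.53. The log2 difference was 0.40 (SE 0.25, 95% interval -0.17 to 0.97) and the SE was 0.10 with the replicate block (adjusted p = 0.525). Pkm, pyruvate kinase, read 10.71, 11.16 and 11.24 with scramble and 10.97, 11.56 and 11.54 with the mimic. Its pairs differed by 0.27, 0.40 and 0.30, the narrowest spread of the 6 genes that were higher in every pair. The log2 difference was 0.32 (SE 0.21), and 0.35 without both replicate 1 arrays. Without scramble replicate 1 alone, that of Pgk1 was 0.18 and that of Pkm 0.16. Pgam1, phosphoglycerate mutase, had 0.13 (SE 0.22), and Eno2, the enolase of neurons, had 0.10 (SE 0.25) at a mean level of 7.43, close to unnamed features.

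Pyruvate can be reduced to lactate or enter the mitochondrion. Ldha, which favours lactate, read 11.61, 12.88 and 12.28 with scramble and 12.36, 13.17 and 12.57 with the mimic. The groups overlapped widely, replicate 2 was the highest and replicate 1 the lowest in both, and within pairs the mimic exceeded scramble by 0.75, 0.29 and 0.29. The log2 difference was 0.44 (SE 0.32, 95% interval -0.29 to 1.18), with an SE of 0.11 in the blocked fit (adjusted p = 0.536). Leaving out scramble replicate 1 gave 0.12, and leaving out both replicate 1 arrays gave 0.29. The 3 features of Ldha had differences from 0.26 to 0.53. Ldhb, the subunit that favours pyruvate, had -0.05 (SE 0.24) at a mean level of 7.34. Pdk1, a kinase that HIF1A induces to shut pyruvate dehydrogenase, read 7.24, 7.62 and 7.62 with scramble and 7.16, 7.54 and 7.62 with the mimic. Both replicate 1 arrays were low and the rest nearly equal, with a log2 difference of -0.05 (SE 0.24, 95% interval -0.61 to 0.50). The mean level of Pdk1 was 7.47, close to unnamed features. Pdha1, the catalytic subunit that this kinase phosphorylates, had 0.20 (SE 0.38), and -0.01 without both replicate 1 arrays.

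Lactate and pyruvate cross the membrane through monocarboxylate transporters. Slc16a3, whose product MCT4 exports lactate from strongly glycolytic cells, had the largest log2 difference of the list. It read 8.12, 8.32 and 7.69 with scramble and 8.74, 9.07 and 8.61 with the mimic. Every mimic array was above every scramble array, and the pairs differed by 0.62, 0.75 and 0.92. The group means were 8.04 ± 0.32 and 8.81 ± 0.24 (SD, n = 3 each), a 1.70-fold difference with a log2 value of 0.76 (SE 0.29, 95% interval 0.10 to 1.42). It did not pass (adjusted p = 0.972 in limma, and adjusted p = 0.586 with the replicate block), and the two-sided exact permutation test gave p = 0.1, the smallest it can give. A second feature, at a mean level of 8.29, also had groups that did not overlap, with a log2 difference of 1.05. Leaving out any 1 array gave 0.59 to 0.90 for the brighter feature, and leaving out both replicate 1 arrays gave 0.84. Its unadjusted p was no longer under 0.05 when scramble replicate 3, mimic replicate 2 or mimic replicate 3 was left out. Slc16a1, which encodes MCT1, the transporter of pyruvate and lactate in most cells, lay at 7.23, the level of unnamed features, with a difference of -0.11 (SE 0.24).

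**Figure D3:**
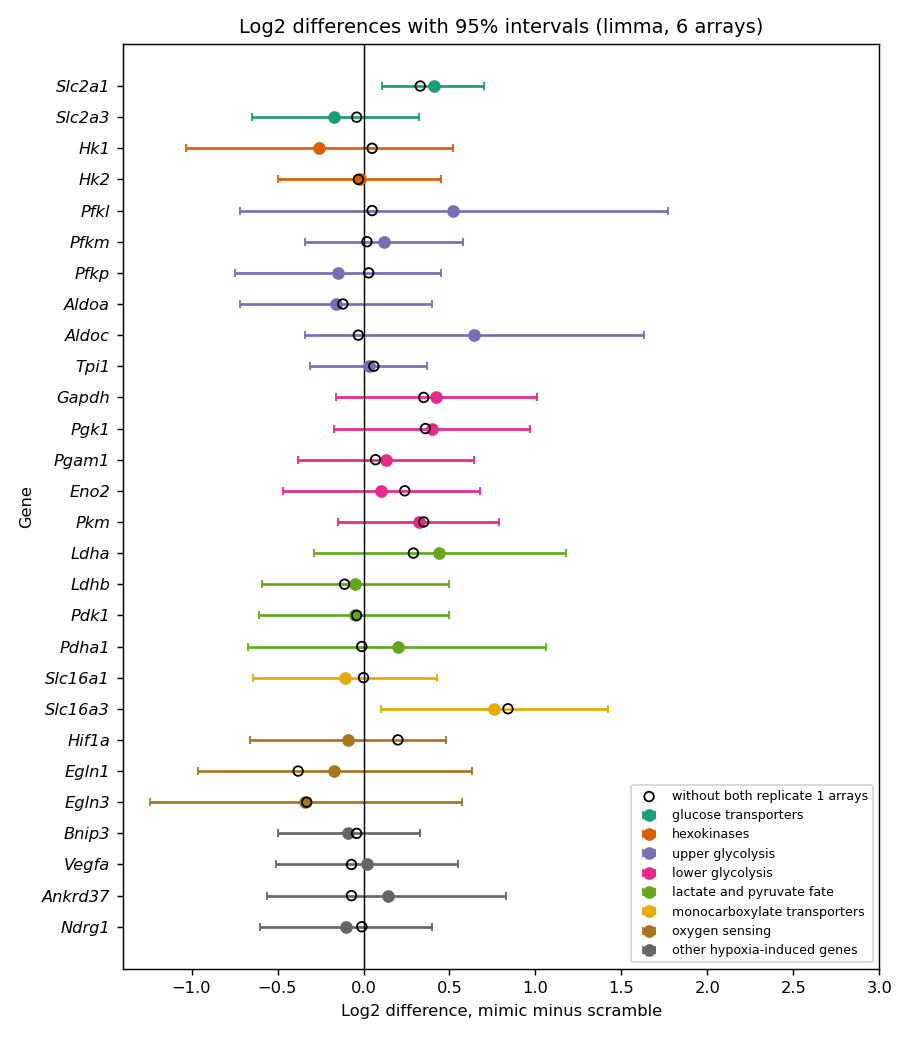
Log2 difference of each of the 28 genes, mimic minus scramble (horizontal axis), with 95% intervals from limma on 6 arrays, coloured by role, and the value without both replicate 1 arrays as an open circle. The intervals of Slc2a1 and Slc16a3 lie above 0 without adjustment, and the open circles of Pfkl and Aldoc lie near 0, far from their values on all arrays.

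All 3 oxygen-sensing genes had lower mean signal with the mimic, with a median log2 difference of -0.17, and 0 of 3 passed. That median was -0.33 without both replicate 1 arrays and 0.11 without scramble replicate 3. The 4 remaining hypoxia-induced genes split 2 and 2, with a median of -0.03. Hif1a, the oxygen-regulated transcription factor, is controlled mostly through its protein. It read 9.23, 8.96 and 9.05 with scramble and 8.56, 9.09 and 9.33 with the mimic, with overlapping groups and a log2 difference of -0.09 (SE 0.25, 95% interval -0.66 to 0.48), which turned to 0.20 without both replicate 1 arrays. Egln3, a HIF-induced prolyl hydroxylase, read 7.13, 7.12 and 8.45 with scramble and 6.78, 7.59 and 7.33 with the mimic. The 8.45 of scramble replicate 3 stood alone, and without that array the sign turned, to 0.11 from -0.34 (SE 0.40). A second Egln3 feature had 0.02. Egln1, the main oxygen sensor, had -0.17 (SE 0.35), and it too was highest on scramble replicate 3, at 8.75. Its difference was -0.38 without both replicate 1 arrays, -0.44 without scramble replicate 1 and 0.13 without scramble replicate 3.

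Bnip3, a mitophagy receptor induced through HIF1A, read 12.93, 13.32 and 13.16 with scramble and 12.76, 13.32 and 13.07 with the mimic. These groups nearly coincided, with a log2 difference of -0.09 (SE 0.18, 95% interval -0.50 to 0.33), and its other features had -0.17 and 0.00. Vegfa, the angiogenic growth factor, read 10.23, 9.80 and 9.79 with scramble and 10.42, 9.66 and 9.79 with the mimic. Both replicate 1 arrays were high on this brightest feature, against the direction of most genes here. The log2 difference of that feature was 0.02 (SE 0.23, 95% interval -0.51 to 0.55). A second Vegfa feature, with a mean level of 9.88, read 9.53, 10.05 and 9.78 with scramble and 9.76, 10.16 and 9.98 with the mimic. Replicate 1 was the lowest array of each group there, and the log2 difference was 0.18. Ndrg1, a stress-induced gene, had -0.10 (SE 0.22). Ankrd37, a short HIF target, had 0.14 (SE 0.31) at a mean level of 7.50, close to unnamed features. The upper end of the unadjusted 95% interval was 0.33 for Bnip3 and 0.40 for Ndrg1. It was 0.48 or more for Vegfa, Ankrd37, Hif1a, Egln1 and Egln3. The interval of Slc2a1, 0.11 to 0.70, overlaps all of these, and no contrast between the genes was tested.

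What these genes shared most visibly was the replicate number. Of the 28 genes, 23 (82.1%) had their lowest value on one of the replicate 1 arrays, against 54.0% of all genes, 13 of them on scramble replicate 1 and 10 on mimic replicate 1. Highest values fell on mimic replicate 2 in 10 genes (35.7%, against 14.7% of all genes). The median deviation of the genes from their own means was -0.28 on scramble replicate 1 and -0.19 on mimic replicate 1, and 0.21 on mimic replicate 2. The replicate 1 arrays were also the ones with the widest spread between features of a gene. The part of array quality in these shifts was not tested.

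**Figure D4:**
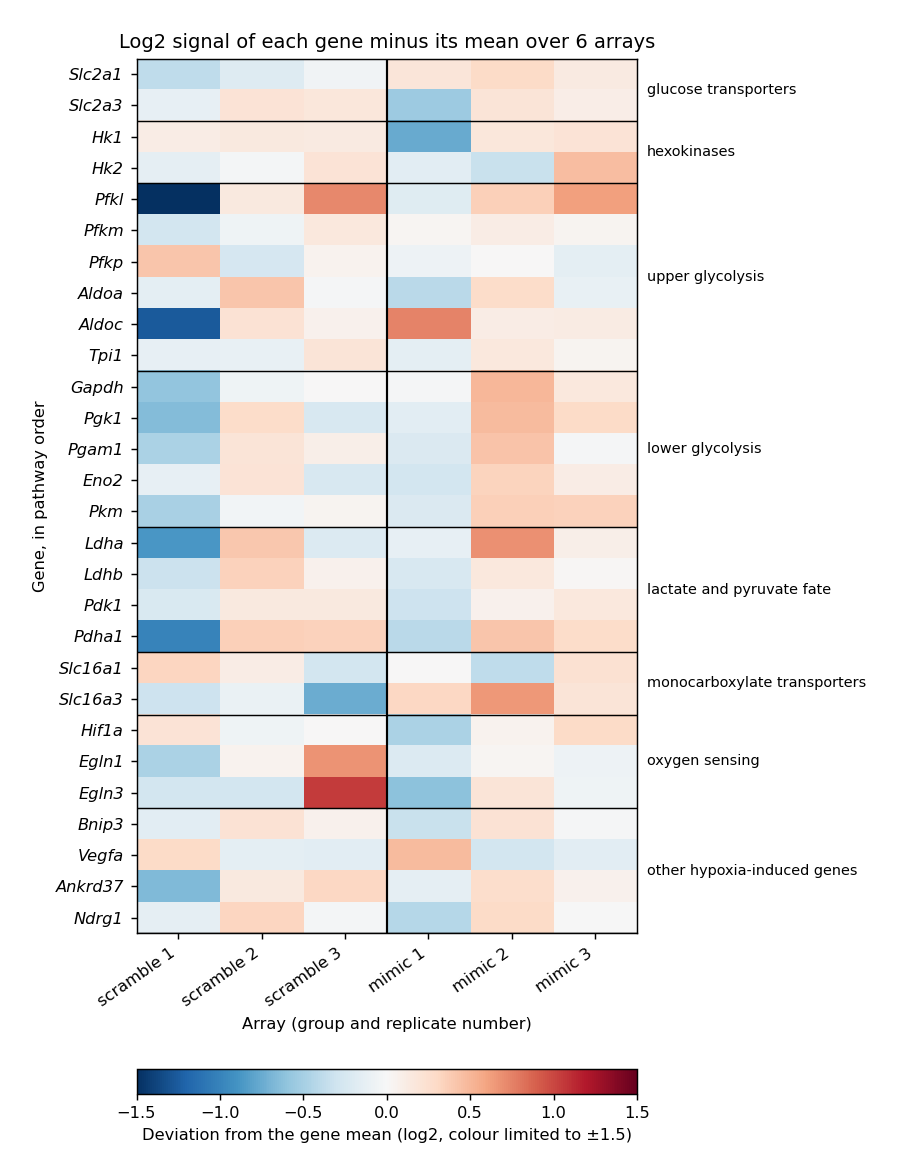
Log2 signal of each of the 28 genes minus its mean over the 6 arrays (colour, limited to ±1.5), with genes in pathway order and arrays in columns. The columns of both replicate 1 arrays are mostly blue, with medians of -0.28 and -0.19, and Pfkl, Aldoc and Pdha1 are the lowest cells of scramble replicate 1.

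The neighbouring steps were read from lists of further pathway genes. None of their genes passed an adjusted p of 0.05 in limma. The 22 other glucose transporters and glycolysis enzymes that could be tested split evenly, 11 up and 11 down in mean signal, around a median of -0.03 on the log2 scale, with 2 genes under an unadjusted p of 0.05 (3.17% of all genes). Fbp2, a fructose bisphosphatase that runs the committing step backwards, read 9.74, 9.15 and 9.46 with scramble and 8.59, 8.70 and 8.96 with the mimic, a difference of -0.70 (SE 0.23), and -0.48 without both replicate 1 arrays. Pfkfb3, which makes the activator of phosphofructokinase and is a HIF target, read 6.74, 7.53 and 6.77 with scramble and 7.60, 7.79 and 7.59 with the mimic, a difference of 0.65 (SE 0.26), and 0.54 without replicate 1. Neither passed (adjusted p = 0.972 for each), and Pfkfb3 lay near the level of unnamed features. In this list 2 genes lay wholly higher (Pfkfb3 and Ldhc) and 3 wholly lower (Fbp2, Pgam2 and Slc2a6), against 5.58% and 4.12% of all genes. Other enzymes that set the same activator had -0.34 (SE 0.45, Pfkfb4), 0.22 (SE 0.32, Pfkfb2) and 0.23 (SE 0.19, Tigar).

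The pentose phosphate pathway, which makes NADPH and ribose, had 7 of 9 genes higher and a median of 0.05, and 0 genes under an unadjusted p of 0.05. Its genes with the smallest p were Rpia (-0.23, SE 0.18) and Taldo1 (0.29, SE 0.24), which encode ribose phosphate isomerase and transaldolase. In pyruvate oxidation 5 of 10 were higher, with a median of 0.04 and 1 gene under an unadjusted p of 0.05 (3.17% of all genes). This was Pdp2, a phosphatase that reactivates pyruvate dehydrogenase, with 10.83, 10.31 and 10.39 on scramble and 9.92, 10.04 and 10.20 on mimic arrays and a difference of -0.45 (SE 0.17), which was -0.23 without both replicate 1 arrays. The opposing kinase gene Pdk2 had -0.55 (SE 0.37), and -0.15 without them. In this list Pdp2 lay wholly lower (4.12% of all genes) and Pdhb, at 0.10 (SE 0.11), wholly higher (5.58% of all genes). Genes of glycogen and hexosamine synthesis had 10 of 15 higher and a median of 0.23, the highest of these lists, and 0.14 without both replicate 1 arrays, with the glycogen synthase gene Gys1 at 0.45 (SE 0.19) and Gfpt2, which opens the hexosamine branch, at 0.64 (SE 0.41). Both shrank without replicate 1, to 0.22 and 0.14. In that list 1 of 15 genes was under an unadjusted p of 0.05 in limma (3.17% of all genes).

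Of the 12 genes of oxygen sensing and the HIF complex, 8 were higher, with a median of 0.05. In limma 1 of the 12 was under an unadjusted p of 0.05 (3.17% of all genes), and 3 with the replicate block (7.24%). The elongin genes, whose products join the VHL ubiquitin ligase that degrades HIF1A, had groups that did not overlap, in opposite directions. Elob was the 1 gene of this list that lay wholly higher (5.58% of all genes) and Eloc the 1 wholly lower (4.12% of all genes). Eloc read 12.97, 12.79 and 12.93 with scramble and 12.35, 12.53 and 12.53 with the mimic, a difference of -0.43 (SE 0.13). Elob read 13.91, 14.20 and 13.97 with scramble and 14.31, 14.26 and 14.24 with the mimic, a difference of 0.25 (SE 0.16). Neither passed (adjusted p = 0.972 for each). Among 24 other HIF targets 13 lay above 0 and 11 below, and the median was 0.12. Under an unadjusted p of 0.05 in limma were 2 of the 24 (3.17% of all genes), and 4 with the replicate block (7.24%). Ak4, a mitochondrial adenylate kinase, read 11.70, 11.75 and 11.64 with scramble and 11.50, 11.22 and 11.44 with the mimic, a difference of -0.31 (SE 0.12). Ccng2, a cyclin of growth arrest, read 7.39, 7.63 and 7.38 with scramble and 8.21, 7.84 and 8.31 with the mimic, a difference of 0.66 (SE 0.27). In this list 3 genes lay wholly higher (Ccng2, Kdm3a at 0.54 and Fam162a at 0.29; 5.58% of all genes) and 1 wholly lower (Ak4; 4.12% of all genes). None of these 4 passed (adjusted p = 0.972 for each).

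**Figure D5:**
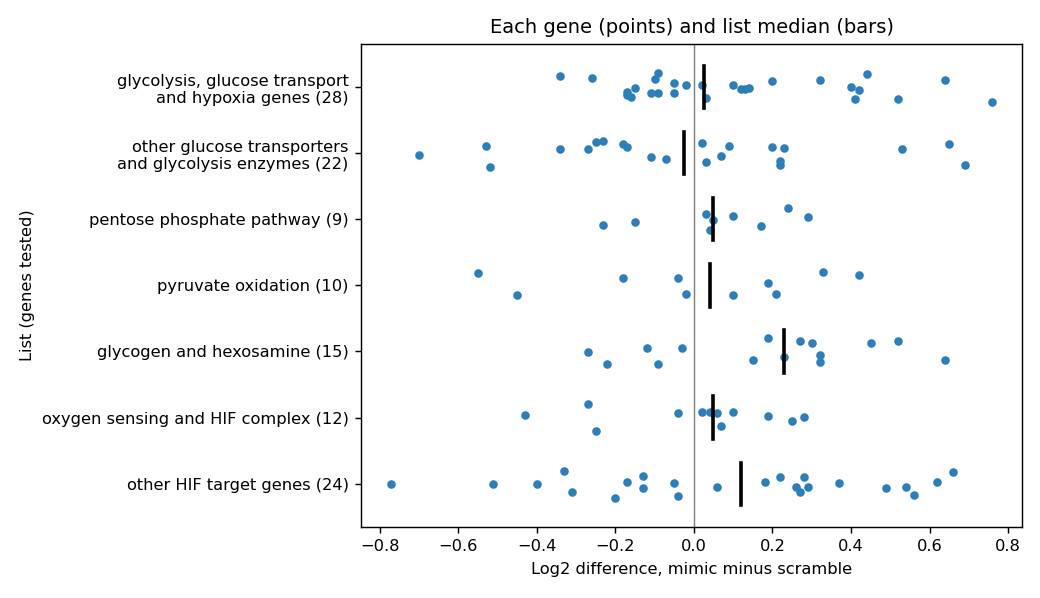
Log2 difference (horizontal axis) of each tested gene of the 28-gene list and of 6 further lists (rows, with the number of genes), with bars at the medians. All medians lie between -0.03 and 0.23, and each list has genes on both sides of 0.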

How the data were processed

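Per the labels, expression was measured by 1-colour arrays in 3 mimic and 3 scramble samples. Groups and replicate numbers come from the titles. The authors deposited a table of log2 signal for 45220 features. Their background correction, normalization and software were details not given in the sources used here. The medians of the arrays (7.37 to 7.38) nearly coincide, so a change shared by most genes cannot be seen, and dim features have no known detection limit.

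Of the features, 33026 had a gene name from the platform annotation, brought up to date by Entrez identifier through a RefSeq table of GRCm38.p6 for 98.2% of them. The lowest 25% by mean over all arrays (below 7.16) were left out, and the brightest feature per gene was kept. Probes cannot separate near-identical copies, such as pseudogenes of Gapdh. The test was limma 3.58.1 (R 4.3.3, eBayes with a trend, two-sided) over 17399 genes, with Benjamini-Hochberg adjustment at 0.05. The code was tested on simulated data. Single genes were also compared by an exact permutation test. The titles call the samples biological replicates, but nothing says that the 3 cultures of a group had separate matings. The p-values rest on the spread between these samples, part of which may be technical.

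For arrays with the same number, deviations from the group means had correlations over genes of 0.328, 0.349 and 0.204, all over 0.1, so the numbers were taken to pair the arrays. Differently numbered arrays also reached 0.185 (scramble 2 with mimic 3) and 0.124 (scramble 3 with mimic 2), so the pairing of numbers 2 and 3 is weak. It comes from the data and not from the labels. Of the 28 genes, values on all arrays are given for the 10 with the smallest p, for those whose groups do not overlap, and for 10 set by name. From each further list the 2 genes with the smallest p are named, and others whose groups do not overlap were added after their values were seen. The genes and lists were chosen with earlier results of these data known. The alternatives covered the filter on dim features, the choice of features, scaling, the variance model, the block and each array left out. Figures were drawn with matplotlib 3.10.9.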

Additional observations from a re-analysis of the deposited data

How the results depend on the processing

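No member passed the adjusted threshold under any of the 15 alternatives run. Over all genes 0 passed in each of them except with the replicate block, where 1 did. The count of members with an unadjusted p under 0.05 was 2 in the fit on all arrays, 4 with array weights, 6 with the replicate block, and 1 to 4 when 1 array was left out, against 3.17%, 6.94%, 7.24% and 2.08 to 5.28% of all genes. It was 1 without scramble replicate 3, mimic replicate 2 or mimic replicate 3, where Slc2a1 alone was left and Slc16a3 was lost, and 4 without scramble replicate 2. Members whose groups do not overlap numbered 2 on all arrays, 2 to 6 with each array left out (15.7 to 23.7% of all genes) and 8 without both replicate 1 arrays, where fewer arrays make separation easier (35.7% of all genes). Aldoc reversed, to -0.03, without both replicate 1 arrays. Signs of small differences were not stable. Of the 28 members, 10 changed sign without mimic replicate 1, 8 without both replicate 1 arrays, 7 without scramble replicate 1, 7 without scramble replicate 2, 6 with array weights and 5 each without scramble replicate 3 or mimic replicate 2, none of them Slc2a1, Slc16a3, Gapdh, Pgk1, Pkm or Ldha. With all features of a gene averaged, Hk1, Pfkp and Tpi1 changed sign, and with arrays centred on the median Tpi1 and Vegfa did. That centring moved the median of all genes from 0.020 to -0.025. Signal near the level of unnamed features limits Slc16a1, Eno2, Ldhb and Egln3, the 4 members that the filter at 50% left out. Pdk1 and Ankrd37, at mean levels of 7.47 and 7.50, passed that filter but also lay close to unnamed features.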
